A study of Mus musculus with 6 samples.

Results

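Distal chromatin sites that were less accessible in granulocyte-monocyte progenitors with little GFI1 are described here. A distal site was an ATAC-seq peak more than 1 kb from both ends of every protein-coding gene. Sites were chosen by their normalized reads in both genotypes: a site counted as reduced when each of the 3 control libraries held at least 20 normalized reads and the highest of the 3 GFI1-KD libraries reached at most 0.6 times the lowest control. By this rule 701 of 182166 consensus peaks were reduced, which is 0.707% of the 99114 distal peaks with at least 20 normalized reads in every control library, called eligible here. The rule used the measured values of both genotypes, so the difference between the genotypes at these sites is a description and carries no test.

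Values are normalized reads, the number of reads in a peak times the library's deposited scaling factor. ATAC-seq reads out open DNA through the Tn5 transposase, which inserts sequencing adapters where nucleosomes leave DNA exposed. All mice were untreated C57BL/6 animals, and progenitors were sorted by flow cytometry from bone marrow, per the labels. The controls were homozygous GFI1-KI mice, in which human GFI1 replaces the mouse gene, and the other group was homozygous GFI1-KD mice, which make human GFI1 at 10-20% and no mouse Gfi1. Both groups therefore carry the human gene, and no library came from mice with the mouse gene. Each genotype had 3 libraries, called KI1 to KI3 for the controls and KD1 to KD3 for GFI1-KD. The sources used here give no age, no cell type limit of the modified gene and no account of pooling. Whether each library came from its own animals is not labelled, so p-values measure no more than how far these libraries differ, partly perhaps for technical reasons.

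GFI1 is a zinc-finger protein that binds DNA and represses transcription by bringing in histone demethylase and deacetylase complexes, and it favours granulocyte over monocyte fate. Sites of open chromatin away from gene ends often act as enhancers, which bind lineage factors such as PU.1, C/EBP, RUNX and GATA proteins. In bulk cells, fewer cells with an open site and less accessibility per cell cannot be told apart.

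The libraries held 16022763 to 27741446 reads in peaks. The strongest gene-end peak of the progenitor genes held, in GFI1-KI, 1755 normalized reads at Cebpa, 1409 at Kit, 1370 at Mpo, 824 at Spi1, 418 at Elane and 366 at Cd34. Genes of other cells held 236 at Pf4, 34.4 at Neurod1, 32.8 at Cd3e and 21.9 at Alb, so the platelet gene Pf4 lay not far below Cd34. Hbb-bs had no such peak. Fcgr3, which encodes an Fc receptor found on these progenitors, had no peak within 1 kb of its ends. Chromosome Y reads numbered 499 to 865 in 4 libraries, 1 in KI2 and 0 in KD1 (a count of 0 allows up to 3). KI2 and KD1 thus look like libraries from female mice and the other 4 like male ones, so each genotype appears to mix the sexes. Whether sex bears on any difference between libraries was not tested. With 1 read over all of chromosome Y in KI2, no peak there could meet the rule. At the 13 reduced sites on chromosome X the median value was 42.8%, 34.7% and 43.9% of the site's GFI1-KI mean in KD1, KD2 and KD3.

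Reduced sites with a known DNA sequence at hand were those that touch a RefSeq transcription start (build GRCm38.p6, the same coordinates as mm10). A start was matched when the peak met the window from 250 bases before it to 50 bases after it. This held for 15 reduced sites (2.14%), 5 at internal starts of protein-coding genes and 10 at long noncoding RNAs, and for 2805 of the 98413 other eligible peaks (2.85%). The 250 bases before the start are printed 5′ to 3′ on the strand of the gene for all 5 protein-coding starts. They are also printed for the 2 noncoding RNAs of highest GFI1-KI level among those whose 250 bases lie wholly inside the site. They were picked for having a sequence, after their values were seen. Capitals mark matches, on either strand, to 6 short motifs whose letters are given with their counts further on. The Gm34441 window held no match.
Il1rl1, chr1:40429320-40429569, plus strand: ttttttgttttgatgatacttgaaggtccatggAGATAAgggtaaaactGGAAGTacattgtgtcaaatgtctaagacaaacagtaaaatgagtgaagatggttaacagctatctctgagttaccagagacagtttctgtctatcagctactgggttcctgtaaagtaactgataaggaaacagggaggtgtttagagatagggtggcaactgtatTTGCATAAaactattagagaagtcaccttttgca
Cyp11a1, chr9:58014702-58014951, plus strand: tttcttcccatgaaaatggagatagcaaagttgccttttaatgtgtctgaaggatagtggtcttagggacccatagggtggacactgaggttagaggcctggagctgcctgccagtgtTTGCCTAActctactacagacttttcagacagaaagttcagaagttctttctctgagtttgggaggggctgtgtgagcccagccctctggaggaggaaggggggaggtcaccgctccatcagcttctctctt
Lipe, chr7:25390113-25390362, minus strand: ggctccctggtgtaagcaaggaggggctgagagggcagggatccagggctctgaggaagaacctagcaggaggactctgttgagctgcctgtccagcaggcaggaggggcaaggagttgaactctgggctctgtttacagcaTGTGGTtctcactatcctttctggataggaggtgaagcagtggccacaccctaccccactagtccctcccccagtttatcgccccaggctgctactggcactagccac
Naip5, chr13:100247337-100247586, minus strand: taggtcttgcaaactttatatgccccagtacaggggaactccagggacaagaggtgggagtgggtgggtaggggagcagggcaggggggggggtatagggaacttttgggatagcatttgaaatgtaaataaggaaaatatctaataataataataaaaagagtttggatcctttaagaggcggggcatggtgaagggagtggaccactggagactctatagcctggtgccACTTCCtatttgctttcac
Adam19, chr11:46127654-46127903, plus strand: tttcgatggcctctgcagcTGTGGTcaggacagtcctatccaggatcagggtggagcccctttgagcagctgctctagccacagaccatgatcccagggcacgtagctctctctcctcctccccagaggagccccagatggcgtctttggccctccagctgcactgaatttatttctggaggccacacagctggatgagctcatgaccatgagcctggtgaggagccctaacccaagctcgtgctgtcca
Gm39767, chr2:21964168-21964417, minus strand: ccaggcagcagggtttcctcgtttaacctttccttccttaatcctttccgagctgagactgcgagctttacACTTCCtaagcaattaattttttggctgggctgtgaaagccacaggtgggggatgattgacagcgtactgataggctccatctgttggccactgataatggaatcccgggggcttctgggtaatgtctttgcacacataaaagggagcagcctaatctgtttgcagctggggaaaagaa
Gm34441, chr6:55536793-55537042, plus strand: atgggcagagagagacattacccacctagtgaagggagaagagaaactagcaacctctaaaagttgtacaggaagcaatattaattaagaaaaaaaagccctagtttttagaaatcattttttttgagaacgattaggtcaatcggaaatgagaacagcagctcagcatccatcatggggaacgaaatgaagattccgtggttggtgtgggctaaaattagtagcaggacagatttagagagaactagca

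Il1rl1 encodes the interleukin-33 receptor of mast cells, basophils and their precursors. The reduced site, on chromosome 1 from 40429335 to 40429564, covers 230 of the 250 printed bases and lies inside the gene, 24.5 kb from its nearest end. It held 31.5, 28.9 and 24.2 normalized reads in KI1 to KI3 and 13.9, 9.87 and 11.1 in KD1 to KD3. The upstream bases held matches to GATA, ETS and C/EBP motifs.

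Cyp11a1 encodes the side-chain cleavage enzyme that starts steroid synthesis. Its site, covering 202 of the printed bases, held 76.6, 73.6 and 78.5 normalized reads in GFI1-KI against 35.3, 17.3 and 39.9 in GFI1-KD, so KD2 was the lowest by a wide margin. Lipe encodes hormone-sensitive lipase, and 130 of its printed bases fall in the site. That site held 59.7, 86.8 and 66.5 against 25.7, 17.3 and 16.6 normalized reads.

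Naip5 encodes the cytosolic flagellin sensor of the NLRC4 inflammasome. Its site was the most open of the 5, at 279, 299 and 264 normalized reads in the controls against 143, 122 and 139.7. GFI1-KI libraries averaged 280.6 ± 17.7 normalized reads (SD, n = 3) and GFI1-KD libraries 135.1 ± 11.3. Naip5 has near-identical neighbouring copies, so reads may have been shared between them. At the Adam19 start, a metalloprotease gene, the controls themselves differed widely, with 78.8, 64 and 29.5 normalized reads against 9.63, 16 and 15.5. The Adam19 site covers 72 of the printed bases, and the marked motif lies outside it.

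The noncoding starts had like values. The Gm39767 site held 83.3, 123 and 124 normalized reads against 40.7, 25.9 and 38.8, averages of 110 ± 23.1 and 35.1 ± 8.03 (SD, n = 3). At Gm34441 values of 63.1, 121 and 91.4 stood against 30, 25.9 and 18.8, and KI1 was well below the other controls. The motif shares were set beside those of all 32817 RefSeq start windows of the same length and of the 3157 at other eligible distal peaks. The RUNX motif, searched as TGTGGT, was found upstream of 7 of the 15 starts, against 14% of all windows and 15.4% of those at other eligible peaks. Windows and not sites were searched. The RUNX matches at Adam19 and at the noncoding start Gssos2 lie outside the reduced sites, which cover 72 and 149 of the window bases. The GATA factor motif, in the form AGATAA, was found at 4 starts, against 9.99% and 7.29%. For ETS factors, which include PU.1, the letters were GGAAGT, with 4 starts against 19.7% and 23.6%. C/EBP proteins were represented by TTGCNNAA, with 3 starts against 9.57% and 9.79%. The AP-1 motif was written as TGANTCA, with 1 start against 6.75% and 6.62%. The GFI1 core was taken as AATCNNNGC, with 0 of the 15 starts against 8.88% and 7.35%. The 15 windows are a small part of the 701 sites, and the remaining sites were not searched. A match is only a run of letters, and its absence says nothing about the factor.

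Across the 701 sites, accessibility was lowered more often than lost. The GFI1-KD mean was a median of 37.2% of the GFI1-KI mean, with 90% of sites between 21.5% and 49.6% (5th and 95th percentile). At 70 sites it was 25% or less, and at 5 sites every GFI1-KD library held at most 5 reads. They are therefore called reduced sites and not lost sites. The log2 fold change had a median of -1.39, against -0.05 over all tested peaks. All 701 were called lower in GFI1-KD by limma (adjusted p under 0.05). Of all 170733 tested peaks 5.48% were called lower and 4.99% higher, of distal peaks 5.17% and 5.61%, and of eligible distal peaks 6.52% and 6.33%. The sites were chosen on this contrast, so nothing is read from their count. Over all peaks 47.7% of the calls were higher in GFI1-KD, which became 58.6% with equal totals, 60.1% with median-of-ratios scaling, 58.4% with edgeR and 66.8% with DESeq2.

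Most sites were of modest size. The median GFI1-KI mean was 45 normalized reads, against 66.4 at the other eligible peaks, and 87.3% of the sites were under 100, against 66%. Per 1000 eligible peaks, 11.5 were reduced where the lowest control held 20 to 40 normalized reads, 7.51 at 40 to 80, 4.01 at 80 to 160 and 1.34 at 160 or more. Standard errors of the log2 fold changes had a median of 0.23 in the lowest of these classes and 0.11 in the highest. The typical site rested on 35 reads in its lowest control library and 17 in its highest GFI1-KD library.

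The 6 libraries did not contribute evenly. As a share of the site's GFI1-KI mean, the medians were 90.5%, 106% and 101.5% in KI1 to KI3 and 39.5%, 36.2% and 37.1% in KD1 to KD3. KI1 was the lowest control at 441 sites (62.9%), against 30.9% of other eligible peaks, and KD1 was the highest GFI1-KD library at 302 (43.1%), against 37.2%. The ratio of highest to lowest control exceeded 2 at 40 sites (5.71%), against 1.46% of other eligible peaks.

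**Figure D1:**
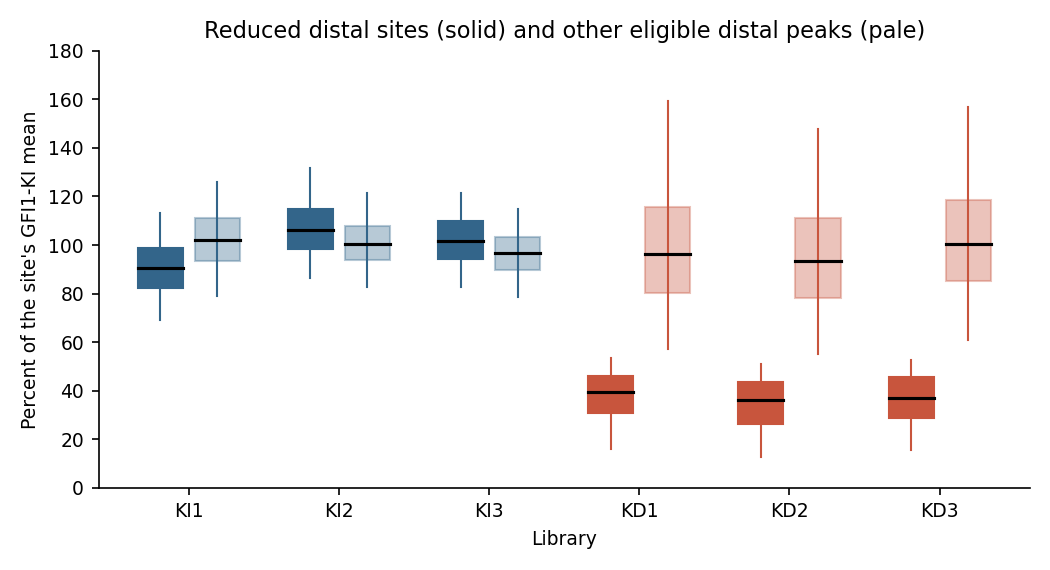
Value in each library as a percent of the site's GFI1-KI mean, for the 701 reduced sites (solid) and the 98413 other eligible distal peaks (pale). Boxes span the quartiles, black bars are medians and whiskers run from the 5th to the 95th percentile. Medians of the reduced sites were 39.5%, 36.2% and 37.1% in KD1 to KD3, and those of the other peaks were 96.3%, 93.2% and 100.2%.

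Membership depended on which libraries were asked to agree. With the same rule but without KI1, 2235 sites passed, of which KI1 itself met the rule at 701 (31.4%). Without KD1 there were 1515, without KD3 1232, without KI3 1061, without KD2 998 and without KI2 898. In each case most of those sites still had the omitted library on the side of its genotype: KI1 lay above every GFI1-KD library at 90.6% of the 2235, against 36.4% of other eligible peaks. KD1 lay below every control at 96.2% of the 1515, against 38.6%, and KI2 above every GFI1-KD library at 99.7% of the 898, against 37.2%. The libraries compared with the omitted one were themselves chosen by the rule, which the other eligible peaks were not. These shares are therefore descriptions and no test of agreement. Other scalings of the libraries gave 560 sites (equal totals) and 568 (median of ratios), of which 551 and 561 were among the 701.

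The mirrored rule, with the genotypes exchanged, found 713 distal sites higher in GFI1-KD. That count was 930 and 915 under the 2 other scalings, so the near balance of the 2 directions holds only for the deposited scaling.

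Next to the boundary of 0.6 the values were close on both sides. The site in Gna13, a G protein subunit gene, lay just inside with 52.9, 50 and 54.4 normalized reads against 30, 17.3 and 7.76. A peak in Ppfia1, just outside, held 64.2, 71 and 75.5 against 38.5, 33.3 and 34.4. At the level of 20, the site 24.9 kb from Rtn4 was just inside, with 21.4, 20.2 and 22.7 against 4.28, 9.87 and 5.54, and a peak in Vmn2r27's neighbourhood, 41.5 kb away, was just outside with 20.3, 28.9 and 19.6 against 8.56, 6.17 and 2.22.

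The most open reduced site lay inside Eif4g3, which encodes a scaffold of translation initiation, on chromosome 4 from 138082459 to 138083560. It held 600.1, 566 and 666 normalized reads in KI1 to KI3 and 291, 226 and 199.6 in KD1 to KD3. All 3 GFI1-KD libraries kept a strong peak, and the gap between the groups is what the rule asks for. Mindy4, a deubiquitinase gene, had like GFI1-KD values in the 3 libraries, with 490.9, 579 and 490.1 against 264, 255 and 264 on chromosome 6 from 55276542 to 55277278. A site 16.2 kb from Klhl8, a kelch-like gene, held 483, 496 and 503 against 263, 216 and 243.

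Further strong sites were near or in genes of general cell function. The site 10.1 kb from Dad1, a subunit of the oligosaccharyltransferase, held 319.8, 366 and 387 normalized reads against 164.8, 151.8 and 122. Inside Dcaf7, which encodes a WD-repeat scaffold, values were 254, 305.9 and 343 against 146.6, 104.9 and 127.5. In Cars, the cysteinyl-tRNA synthetase gene, the 3 controls at 210.6, 263 and 247 stood against 122, 79 and 73.2. KD1 was the highest of the GFI1-KD libraries in these 3 sites.

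Besides Naip5, strong sites in or near genes with immune roles included those of Blk and F2rl1. Inside Blk, the gene of a B cell tyrosine kinase, the site on chromosome 14 from 63377226 to 63377772 held 226, 281 and 260.5 normalized reads against 113.4, 124.7 and 103.1. The site 28.6 kb from F2rl1, which encodes protease-activated receptor PAR2, held 218, 216 and 229.6 against 102.7, 101.2 and 112. Controls differed little among themselves at F2rl1 (221.5 ± 7.06, SD, n = 3).

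**Figure D2:**
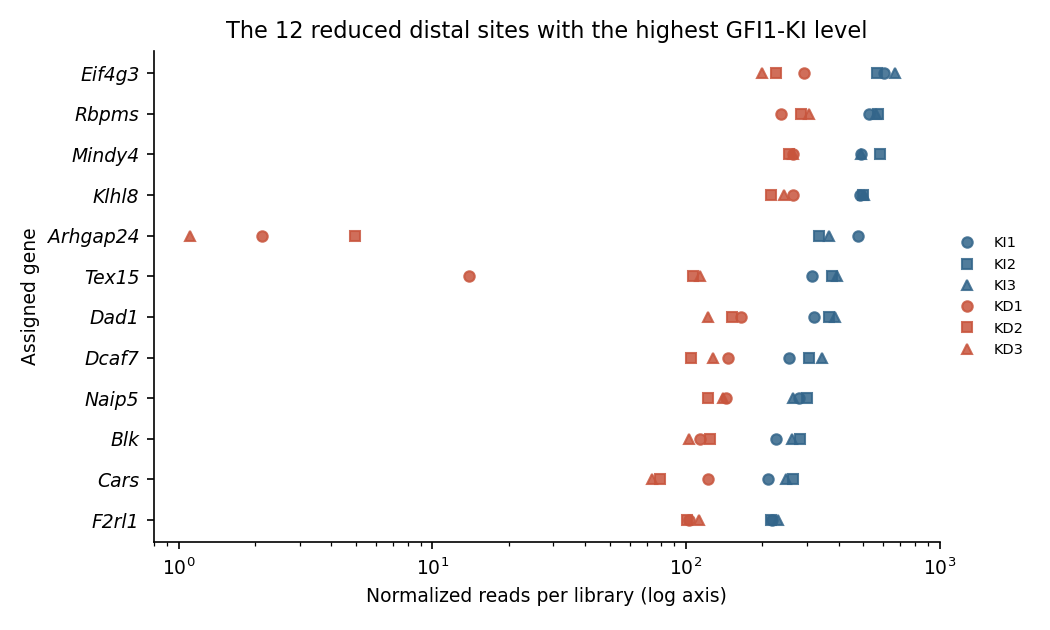
Normalized reads per library (log axis) at the 12 reduced distal sites with the highest GFI1-KI mean among those with a named gene within 50 kb, 1 per gene. Blue symbols are GFI1-KI and red symbols GFI1-KD libraries. The GFI1-KD mean is 38.1% to 50.2% of the GFI1-KI mean at all sites but Arhgap24 (0.697%), where all 3 libraries are near 0, and Tex15 (21.5%), where KD1 lies far below KD2 and KD3.

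Near-complete reduction was rare. At Arhgap24, which encodes a GTPase-activating protein for Rac, the site on chromosome 5 from 102629255 to 102629773 held 474, 333 and 367 normalized reads against 2.14, 4.94 and 1.11, that is 2, 4 and 1 reads. This site lies within 10 Mb of Gfi1, the targeted gene. Arhgap24 had 3 further reduced sites. One was also deep, with 39.4, 42.9 and 52.9 against 5.35, 17.3 and 9.98, while the others kept 44.3% and 44.8% of the GFI1-KI mean. Of the 27 eligible distal peaks of Arhgap24, 4 were reduced sites, and of its other distal peaks 6 were called lower and 0 higher. Over all distal peaks that were not reduced sites, 4.7% were called lower and 5.63% higher.

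Other deep reductions came at weaker sites. Inside Fras1, an extracellular matrix gene, at a site 10 to 20 Mb from Gfi1, values were 60.8, 57 and 56.6 normalized reads against 3.21, 1.23 and 5.54. In Slco2a1, a prostaglandin transporter gene, they were 20.3, 28 and 20.4 against 4.28, 3.7 and 3.33. The site 15.3 kb from Slc28a2b, a nucleoside transporter gene, held 29.3, 50.8 and 40 against 7.49, 2.47 and 5.54. The GFI1-KD values here are 1 to 7 reads in each library, so their order among libraries has no weight.

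Among the sites of lowest ratio with a named gene were also genes of vesicle sorting and the cytoskeleton. Sorl1, a sorting receptor, had 25.9, 29.8 and 27.2 normalized reads against 7.49, 3.7 and 3.33, and Psd3, an exchange factor for the GTPase ARF6, 27, 38.6 and 44.6 against 5.35, 7.41 and 5.54. The site 26.4 kb from Elmo1, the partner of the Rac activator DOCK, was even across libraries, at 63.1, 66.6 and 67.2 against 18.2, 19.7 and 16.6. Sites in Fhod3 and Col4a2, and the lowest-ratio sites near Actrt2, Tsga10 and Trmt9b, kept 14.1% to 22.7% of their GFI1-KI mean.

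Of the 701 sites, 125 (17.8%) lay over 50 kb from any protein-coding gene, against 12% of other eligible peaks. Inside gene bodies lay 362 (51.6%), against 55.6%. The median distance from the nearest gene end was 27.3 kb, against 17.1 kb. Long noncoding RNA genes overlapped 81 sites (11.6%), against 12.7%. Peak length was nearly the same, with medians of 302 and 301 bp.

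Some of the deepest reductions were in these gene-poor places. A site on chromosome 1 from 76010298 to 76010799, 450.9 kb from the nearest gene end, held 125, 118.3 and 107.2 normalized reads against 15, 11.1 and 6.65. A site on the same chromosome from 132803818 to 132804322 was low in GFI1-KD, at 18.2, 14.8 and 11.1, but its controls ran from 62.7 in KI3 through 140.2 in KI2 to 263 in KI1. The spread between controls was there larger than that of almost any other site, since only 4 sites had a highest control more than 3 times the lowest. Both sites were picked after their values were seen.

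The 576 sites with a gene within 50 kb belonged to 510 genes, 458 of them with a single site, 42 with 2, 6 with 3 and 4 with 4. The 4 genes with 4 sites were Arhgap24, Gsr, Rbpms and Sorcs2. Not all were lower throughout: among their other distal peaks, 2 were called lower and 2 higher at Gsr, and 6 and 9 at Rbpms. Rbpms also had 2 sites of the mirrored rule. A reduced site had another within 5 kb in 21 cases and within 100 kb in 149 (21.3%). No like share was worked out for other eligible peaks, so nothing is read from these counts. Of the 510 genes, 35 (6.86%) also had a site higher in GFI1-KD by the mirrored rule, which is 7.03% of the 498 genes with such a site. For scale, 14281 genes had an eligible distal peak. Whether the overlap exceeds what the number of peaks per gene would give was not tested.

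Sorcs2 encodes a neuronal sorting receptor. Of its 21 eligible distal peaks 4 were reduced sites, and of its other distal peaks 9 were called lower and 0 higher. The shares over all distal peaks that were not reduced sites were 4.7% and 5.63%. Its strongest site, on chromosome 5 from 36361711 to 36362138, held 65.3, 80.6 and 58.9 normalized reads against 34.2, 27.2 and 32.2. Limch1, on the same chromosome, had 2 reduced sites with 9 other distal peaks lower and 0 higher.

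Kcnq1, a potassium channel gene, had 3 reduced sites among 26 eligible peaks, with 7 other distal peaks lower and 1 higher. Crem, a cAMP-responsive transcription factor gene, had 3 of 7, none inside the gene, with the strongest at 29.3, 29.8 and 32.5 against 15, 8.64 and 14.4. Iqgap2, a cytoskeletal scaffold gene, had 3 of 45 but also 4 sites of the mirrored rule, so both directions met in 1 gene. Among its other distal peaks, 8 were called lower and 11 higher. Its strongest reduced site held 101.3, 137.6 and 123.1 against 49.2, 39.5 and 59.9.

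The sites were not spread evenly over the genome. Chromosome 8 had 65, or 13.5 per 1000 eligible peaks, the highest of all, and chromosome 19 had 10, or 3.29 per 1000. On chromosome 8 between 30 and 40 Mb there were 25 sites among 346 eligible peaks, which is 72.3 per 1000. The rest of chromosome 8 had 8.95 per 1000, and all chromosomes other than 5 and 8 had 6.63. Sites higher in GFI1-KD were also dense in that stretch, with 20 from 30 to 35 Mb and 15 from 35 to 40 Mb.

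**Figure D3:**
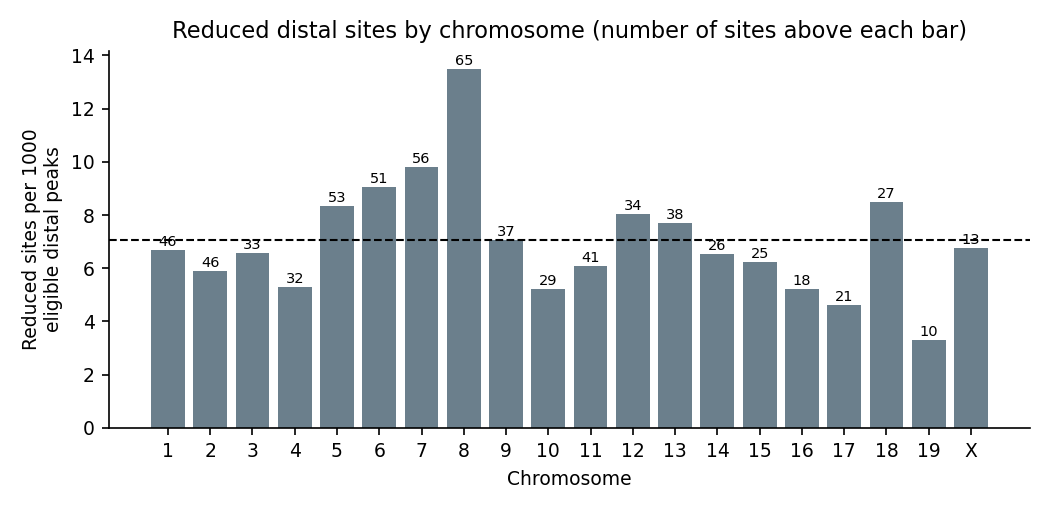
Reduced sites per 1000 eligible distal peaks on each chromosome, with the number of sites above each bar and the genome-wide level as a dashed line. Chromosome 8 stands highest at 13.5 and chromosome 19 lowest at 3.29.

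Within the chromosome 8 stretch the GFI1-KD libraries differed from each other. The median value was 16.5% of the GFI1-KI mean in KD1, 41.3% in KD2 and 43.7% in KD3, against 40.1%, 35.8% and 36.7% at the sites on chromosomes other than 5 and 8. KD1 was under 50% of both other GFI1-KD libraries at 12 of the 25 sites (48%), and at 13 of the other 676 (1.92%). KD1 was the lowest GFI1-KD library at 24 of the 25 (96%), against 25.4% of the others, and at 3 it held 0 or 1 read. The sites are neighbours on 1 chromosome and share the 3 libraries, so they are not independent.

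Tex15, a gene of meiosis and germ cells, gives the pattern at high depth, with controls at 313, 377 and 393 normalized reads against 13.9, 106.1 and 113.1 in KD1 to KD3. A weaker site in Rbpms had 241, 261 and 239 against 2.14, 98.7 and 120.9, so KD1 was nearly closed while the other libraries kept part of the peak. A site in Gsr, the glutathione reductase gene, held 50.7, 42.9 and 56.6 against 0, 21 and 24.4, where 0 reads allow up to 3.21 normalized reads. Another in Gsr did not share the pattern, with 122.7, 193.7 and 206.9 against 68.5, 56.8 and 69.9. The strongest site in Rbpms, an RNA-binding protein gene, had like values in the 3 libraries, at 528, 570 and 561 against 236, 284 and 306. The weaker Rbpms site and the Gsr site with 0 reads were picked after their values were seen, and what sets KD1 apart there was not tested. A window of chromosome 6, from 55 to 60 Mb, held 7 sites among 108 eligible peaks (64.8 per 1000), with 2 sites of the mirrored rule. Its sites include both in Mindy4, and there KD1 lay with the other GFI1-KD libraries, as at a site in Fkbp9, a peptidyl-prolyl isomerase gene, with 67.6, 54.3 and 77 against 21.4, 19.7 and 25.5.

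**Figure D4:**
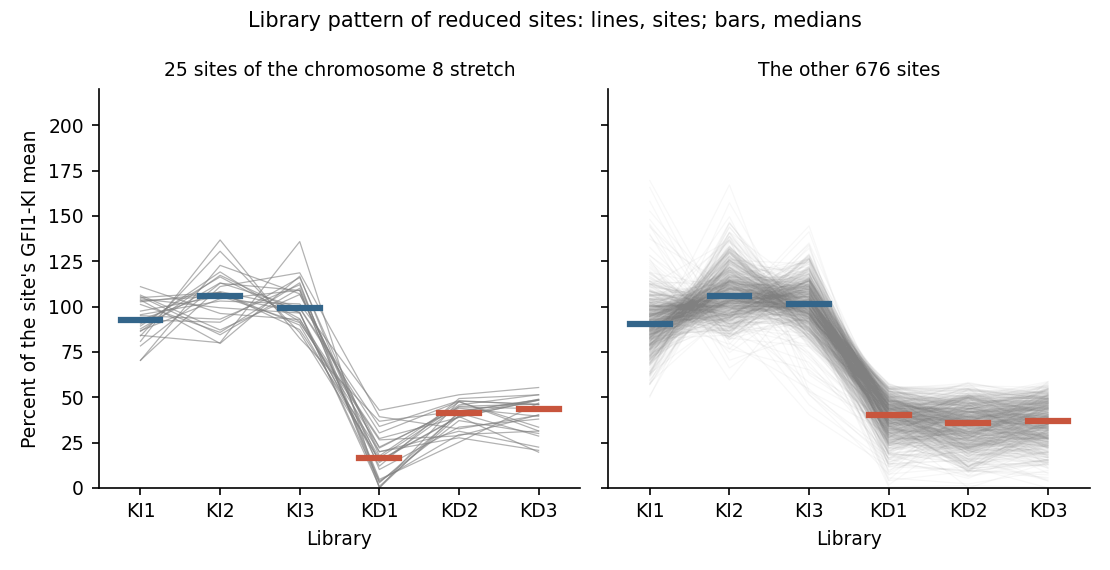
Value in each library as a percent of the site's GFI1-KI mean, for the 25 reduced sites on chromosome 8 between 30 and 40 Mb (left) and the other 676 (right). Thin lines are sites and thick bars medians. On the left the KD1 median is 16.5%, under those of KD2 (41.3%) and KD3 (43.7%).

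The targeted gene, Gfi1, lies on chromosome 5 from 107716655 to 107725805. Within 10 Mb of it there were 16 reduced sites, or 12.6 per 1000 eligible peaks, from 10 to 20 Mb 11 (9.71) and on the rest of chromosome 5 26 (6.56). The nearly closed Arhgap24 site was among the 16, and the deep Fras1 site lay 10 to 20 Mb away. None of the 16 was assigned to Gfi1. The nearest to Gfi1 was inside Rpap2, an RNA polymerase II phosphatase gene, with 39.4, 64 and 42.3 normalized reads against 22.5, 13.6 and 15.5. Inside Aff1, a subunit gene of the super elongation complex, a site held 51.8, 45.6 and 45.3 against 15, 14.8 and 11.1. Low GFI1 and any other difference between the genotypes in DNA around the modified locus cannot be told apart here.

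Gene lists of blood lineages were compared by the share of their eligible distal peaks that were reduced sites, beside 0.707% of all eligible peaks. The lists and sites were chosen with results of these data known, so the shares are descriptions. Stem cell and leukaemia regulators had 10 of 653 (1.53%) at 8 of 36 genes, and 1 site of the mirrored rule. Of the 977 tested peaks of this list, 83 were called lower and 28 higher, beside 5.48% and 4.99% of all tested peaks.

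Hlf, a transcription factor of stem cells, had 2 reduced sites of 16 eligible peaks. The stronger, on chromosome 11 from 90380044 to 90380380, held 56.3, 66.6 and 49.1 normalized reads against 15, 18.5 and 16.6, and the other 28.1, 31.6 and 28.7 against 9.63, 11.1 and 6.65. Of its other distal peaks 5 were called lower and 0 higher. Zbtb16, which encodes the factor PLZF, had 2 of 38, with 32.7, 36.8 and 39.3 against 17.1, 9.87 and 9.98 at the stronger. That the groups lie apart at these sites follows from the rule. At the stronger Zbtb16 site KD1 lay above the other GFI1-KD libraries.

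Single reduced sites lay in Angpt1, a ligand of the TIE2 receptor, at 144.1, 210.4 and 170.7 normalized reads against 68.5, 39.5 and 69.9. In Runx1t1, the corepressor gene ETO, a site held 119.3, 166.5 and 166.9 against 59.9, 25.9 and 42.1. Erg and Runx1, factors of blood stem cells, and Msi2, an RNA-binding protein gene, had 1 site each, with GFI1-KD means of 25%, 50.5% and 21% of the GFI1-KI mean. These 3 genes had 50, 62 and 37 eligible peaks. Among their other distal peaks, 0 were called lower and 3 higher at Erg, 6 and 3 at Runx1, and 3 and 1 at Msi2. The counts were 5 and 0 at Angpt1 and 2 and 0 at Runx1t1.

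No site was assigned to the 27 monocyte and dendritic genes (0 of 267 eligible peaks), the erythroid genes (0 of 91) or the AP-1 and immediate early genes (0 of 213). At the overall share of 0.707%, lists of these sizes would hold very few sites, so nothing is read from their absence. Of the 418 tested peaks of the monocyte and dendritic list 15 were called lower and 33 higher. For the erythroid list the counts were 18 and 2 of 163, and for the AP-1 list 23 and 38 of 324. Neutrophil genes had 1 of 72 (1.39%), inside Ltf (lactoferrin), with 28.1, 33.3 and 31.7 normalized reads against 15, 12.3 and 9.98. Cytokine and growth factor receptor and signalling genes had 1 of 382 (0.262%), the Il1rl1 start.

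The other blood lineage lists held 1 or 2 sites each, so their shares rest on very few sites. Mast cell, basophil and eosinophil genes had 2 of 151 (1.32%), Il1rl1 and Mitf, the mast cell factor, whose site held 92.3, 92 and 92.1 normalized reads in the controls, almost without spread, against 43.9, 34.6 and 26.6. Megakaryocyte and platelet genes had 2 of 195 (1.03%), with 34 of 297 tested peaks called lower and 8 higher. A site of that list lay 8 kb from Itgb3, the platelet integrin subunit, at 51.8, 59.6 and 66.5 against 24.6, 22.2 and 27.7. B cell genes had 2 of 131 (1.53%, the share of the stem cell list), Blk and Bach2, a B cell repressor gene with 21.4, 37.7 and 32.5 against 8.56, 7.41 and 9.98. T and NK cell genes had 1 of 167 (0.599%), in Klrb1c, an NK cell receptor gene with 112.6, 174.4 and 122.3 against 42.8, 59.2 and 59.9. Mature macrophage genes had 1 of 90 (1.11%), in Gas6, a ligand of phagocytic receptors, at 136.2, 130.6 and 102.7 against 52.4, 51.8 and 41. Whether the make-up of the sorted cells differed was not tested.

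Distal peaks that the rule did not choose were then examined around the reduced sites, in the same fit and the same libraries. Within 5 kb of a reduced site lay 711 tested distal peaks that were not reduced sites. Of these 133 (18.7%) were called lower in GFI1-KD and 21 (2.95%) higher, against 4.7% and 5.63% of all 142925 such distal peaks. Their median log2 fold change was -0.26, against -0.04. Within 1 kb 34.4% were called lower, from 1 to 2 kb 25.5%, from 2 to 5 kb 11.7%, and beyond 100 kb 4.42%. Outside the 5 Mb windows that held 5 or more reduced sites the shares within 1 kb and from 1 to 2 kb were 32.2% and 23.7%. The count of 133 was 48 without KI2, 60 without KI3 and 83 without KD2.

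**Figure D5:**
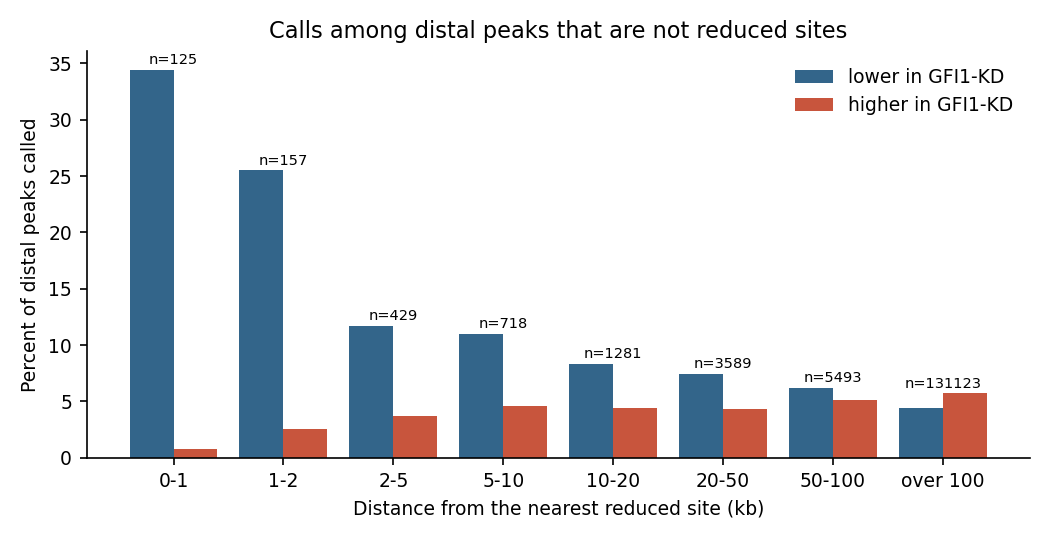
Percent of tested distal peaks that were called lower or higher in GFI1-KD, by distance from the nearest reduced site, with the number tested above each pair of bars. Lower calls go from 34.4% within 1 kb to 4.42% beyond 100 kb, and higher calls from 0.8% to 5.72%.

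Gene-end peaks, within 1 kb of either end of a gene, were outside the rule as well. The 510 genes with a reduced site had 861 tested gene-end peaks, of which 113 (13.1%) were called lower and 12 (1.39%) higher. The 13771 genes with eligible distal peaks but no reduced site had 7.04% lower and 1.75% higher, and all gene-end peaks had 7.11% and 1.73%. The 113 became 36 without KI2, 32 without KI3, 67 without KD2 and 74 without KD3, and the share at the other genes then was 1.55%, 1.62%, 4.04% and 3.91%.

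The 38 genes named by rule that had tested gene-end peaks held 77 of them, of which 8 were called lower and 1 higher by limma. Over all gene-end peaks the shares were 7.11% and 1.73%. The median log2 fold change of the 77 was -0.20. It was -0.15 at all genes with a reduced site and -0.10 at genes with eligible distal peaks but none reduced, so gene-end peaks lay slightly lower in general. The reduced sites were chosen for a large difference, so the sizes at sites and gene ends are not compared. The main gene-end peak of Hlf averaged 344.9 ± 28.3 normalized reads against 268.1 ± 13.3 (SD, n = 3), which is -0.36 on the log2 scale, with a standard error of 0.10 (adjusted p = 0.026, limma). At Crem 2216 ± 158 stood against 1895 ± 17.1 (-0.22 ± 0.05, limma adjusted p = 0.01).

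The largest of these differences lay in the chromosome 8 stretch. A Gsr end peak held 128.4, 156.9 and 166.1 normalized reads against 9.63, 64.2 and 90.9, a log2 fold change of -1.91 ± 0.44 (limma adjusted p = 0.0076), and KD1 was again far below the other GFI1-KD libraries. An end peak of Tex15 went the other way, with 28.2, 19.3 and 27.2 against 70.6, 51.8 and 65.4 (1.30 ± 0.22, limma adjusted p = 0.00058). The Arhgap24 end held 62.2 ± 6.3 against 54.3 ± 16, and the strongest end peak of Iqgap2 1907 ± 72.2 against 1794 ± 36.3, and neither was called (limma adjusted p of 0.52 and 0.3).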

How the data were processed

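The deposited values are a signal per consensus peak that the authors scaled; the steps between values show a single factor per library. Every value was a whole multiple of its library's step (100% at a tolerance of 0.01 reads), so reads were recovered. The tools in the submitters' processing notes are MACS2, DiffBind, ChIPseeker, HOMER, BWA, SAMtools, Picard and Trim Galore, with build mm10. Peak merging and any transposase shift: not given in the sources used here.

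Columns named WT were taken as GFI1-KI of the same number, since the series title calls that genotype wild type. Chromosome codes were read in alphabetical order, which put 16.0% of peaks within 1 kb of a gene end over the codes that differ, against 2.62% in numeric order. Genes were 21887 RefSeq protein-coding genes. A peak's gene was the one it overlapped or the nearest within 50 kb, which need not be the gene it regulates.

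Peaks with a mean of 10 or more were log2-transformed after adding 1 and fitted in R 4.3.3 by limma 3.58.1, trend variance on, using Benjamini-Hochberg adjustment at 0.05 over 170733 peaks. The script was tested on simulated data. On recovered reads, as alternatives, edgeR 4.0.16 called 8957 peaks lower and 12559 higher, and DESeq2 1.42.0 called 3597 and 7222. Tables used Python 3.11.15 with pandas 2.3.3. Intervals and floors (3 reads) cover counting error only.

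Sites named were, among those with a gene within 50 kb that is not a predicted gene and with 1 site per gene, the 12 of highest GFI1-KI mean and the 12 of lowest ratio, then the 10 genes with most sites and up to 3 genes per list, with edge cases. Members and lists were chosen with earlier results of these data known. Sites outside that rule (start windows, gene deserts, the Rpap2, Aff1, Fkbp9, Limch1, Runx1t1, Erg, Runx1 and Msi2 sites, and second sites of a gene) were chosen after their values were seen. Some named sites and 2 gene lists are not reported here.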

Additional observations from a re-analysis of the deposited data

How the results depend on the processing

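The number of reduced sites was 226 at a ratio of 0.5 and 1790 at 0.7, and 1145 with a lowest control of 10 and 312 with 40. It stayed within 1.5 times of 701 with other scalings (560 and 568), with a distance of 5 kb from gene ends (624), outside the windows with 5 or more sites (538) and on chromosomes other than 5 and 8 (583), the last 2 chosen after seeing the data. Leaving out 1 library gave 898 to 2235 sites. Of all tested peaks 9352 were called lower, 5956 with a minimum mean of 50 and 3597 with DESeq2, and 2940 to 10179 with 1 library left out. The share of calls that were higher in GFI1-KD was 47.7%, and 58.6%, 60.1%, 58.4% and 66.8% with equal totals, median-of-ratios scaling, edgeR and DESeq2. Of the 701 sites 156 were called lower with a minimum mean of 50, where most were not tested, and 566 with DESeq2. The count ran from 620 to 694 with 1 library left out, and their median log2 fold change from -1.47 to -1.35.

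Gene-end peaks called lower at genes with a reduced site numbered 113, and 42 with DESeq2, with 32 to 109 when 1 library was left out. Their share stayed above that at the other genes in all 16 alternatives of scaling, filter, tool and library (3.72% to 18.8%, against 1.55% to 10.9%). Neighbouring distal peaks called lower numbered 133, and were 57 with a minimum mean of 50, 56 with DESeq2, 319 within 20 kb and 48 to 122 with 1 library left out. Their share was 6.75% to 21.4%, against 1.32% to 6.26% of distal peaks that were not reduced sites.

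Same-numbered libraries did not deviate together (Pearson r across peaks of -0.02, -0.04 and 0.06), so the numbers were not used to pair the samples. The largest r of any pair was 0.09, between KI2 and KD1. Such values cannot exclude that some libraries shared an origin or handling. With the replicate block 9852 peaks, 697 of the reduced sites, 128 gene-end peaks and 129 neighbours were called lower, and the median log2 fold change stayed at -1.39. Of 42 named sites 3 lost their call under some alternative: Il1rl1 with DESeq2 and without KI2, Crem without KI3, and Tex15 with DESeq2 and with robust variance estimation. Most sites rest on few reads, and a site under 20 normalized reads in 1 control could not be seen by the rule.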

Other observations

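Of the reduced sites 1 overlapped a microRNA hairpin and 3 lay within 5 kb of one. The site over Mir6353, on chromosome 1 from 84218591 to 84218903, was even within each genotype, with 50.7, 50 and 45.3 normalized reads in KI1 to KI3 and 26.8, 25.9 and 25.5 in KD1 to KD3. A site 0.65 kb from Mir153 had 51.8, 64.9 and 59.7 against 22.5, 29.6 and 28.8. The sites near Mir5113 and Mir7049, at 2.45 and 4.52 kb, kept the same order, and the groups do not overlap at any of the 4, as the rule requires.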
